A study of Mus musculus with 35 samples.

Results

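The genes described are 38 genes of fatty acid oxidation and of the PPAR-alpha response, chosen by name: 23 oxidation enzymes and carriers, and 15 genes of lipid handling together with other targets of the receptor. Probe sets annotated to a single gene measured 36 of the 38, of 18193 genes on the array, while Acsl1 and Ucp2 were not analysed here. Each gene was read from its brightest probe set, and all 36 lay above the limit for dim genes. Measured were 22 oxidation genes and 14 lipid handling and target genes.

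The RNA came from whole kidneys of FVB/NJ mice, either diabetic OVE26 animals or controls of the same strain, taken at an age of 2, 4 or 8 months. OVE26 mice carry a calmodulin transgene under an insulin promoter, so the damage that makes them diabetic arises in the pancreatic beta cells, which cease to make enough insulin early in life. Each group held 6 arrays, except that the 4-month animals gave 7 diabetic arrays and 4 controls, which makes 35 in all. The labels do not say whether each array is a separate animal, so p-values measure the spread between these samples, which may be technical.

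Fatty acids enter a cell through transporters, are bound by fatty acid binding proteins, activated with coenzyme A, and either stored in lipid droplets or carried as carnitine esters into mitochondria and oxidised there. Peroxisomes shorten very long chains by a related route. PPAR-alpha is a nuclear receptor that fatty acids activate; with its partner RXR it binds repeats of a short hexamer near many genes of this route and raises their transcription in fasting. Cells of the proximal tubule, which make up much of the kidney cortex, rely on fatty acid oxidation as their main source of ATP.

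Signals are log2 values, so a difference of 1 is a doubling, and signals of different genes come from different probes and cannot be set against each other. Over all probe sets, pairs of arrays of an age correlated with r from 0.969 to 0.998. Control array 6 at 2 months stood apart in RNA quality, with a 3' minus 5' log2 ratio of 2.56 for beta-actin against at most 1.35 on any other array. Kidney markers were present at all ages: all 11 measured proximal tubule markers, such as Lrp2 and Slc34a1, passed the limit for dim genes. At 8 months 6 of these 11 fell in diabetic kidneys and none rose, with a median difference of -0.32, and their summed log2 signal was 15.92 to 15.96 in controls and 15.42 to 15.84 in diabetic kidneys. In the same arrays 6 of 7 macrophage markers rose, with summed signals of 11.86 to 12.20 in controls and 12.50 to 14.08 in diabetic kidneys. All 4 fibroblast markers and all 4 tubular injury markers rose at that age, 4 of 5 thick ascending limb markers and 1 of 3 podocyte markers fell, 2 of 4 collecting duct markers rose, and none of 4 endothelial markers or of 1 muscle marker tested passed. By the same test 9.87% of all 13004 genes tested rose at 8 months and 6.95% fell. These shifts in markers stand beside each result at 8 months below, and their part in those results was not tested. In whole-kidney RNA, fewer cells of a type and less RNA per cell cannot be told apart.

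As a group the oxidation enzymes of diabetic kidneys stayed close to control levels at every age. Their median difference, diabetic minus control, came to 0.10, 0.11 and 0.04 at the successive ages, beside medians over all 13004 genes tested of -0.01, 0.01 and -0.00. Differences were above 0 in 19, 18 and 13 of the 22 enzymes, against 45.8%, 53.5% and 49.9% of all genes. The count at 2 months rests in part on control array 6, the array with the high actin ratio. Without it Acadl, Hadhb, Eci2, Etfb and Etfdh each turned to -0.01, and the other enzymes kept their sign. The lipid handling and target genes had larger medians, 0.18, 0.23 and 0.27, with 9, 10 and 9 of 14 above 0. That order of the classes held at 8 months in every alternative run. At 2 months it was lost without diabetic array 1 or 3 or control array 6, the last with 0.05 for both classes, and at 4 months without control array 3 (0.08 for oxidation and 0.06 for lipid handling genes) or without control arrays 3 and 4 together (0.03 and -0.08). Array by array, the median of the lipid handling genes relative to the control mean ran from -0.21 to 0.16 in controls and from 0.13 to 0.67 in diabetic kidneys at 8 months, whereas that of the oxidation enzymes ran from -0.12 to 0.11 and from -0.14 to 0.18. At 2 months the lipid handling medians of both groups spread widely, from -0.73 to 0.29 in controls and from -0.67 to 0.65 in diabetic kidneys. These medians describe the chosen genes and carry no test.

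**Figure D1:**
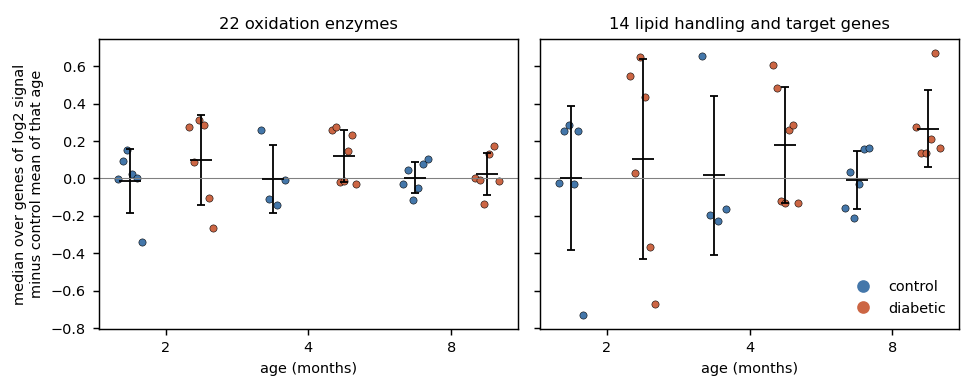
Median over genes of the log2 signal minus the control mean of that age, for 22 oxidation enzymes (left) and 14 lipid handling and target genes (right), by age in months; each point is an array, blue control and orange diabetic, and the bar and line give mean and SD. At 8 months the diabetic arrays of the lipid handling genes sit between 0.13 and 0.67, while the oxidation enzymes of both groups sit between -0.14 and 0.18.

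Few single genes passed the test, a limma fit with p adjusted over all genes tested. At 2 months 1 of 36 members was called, Acot7, against 2.54% of all genes (1.78% lower). At 4 months 1 was called, Ucp1, where 0.969% of all genes were. Ucp1 passed the limit for dim genes only through its controls of 4 and 8 months, so its calls are not read against these shares. None of the other 35 members was called by limma at 4 months. At an unadjusted p under 0.05 stood 5 of them, beside 1478 of all 13004 genes. At 8 months 6 were called where 16.8% of all genes were: Eci1, Plin2, Angptl4 and Acot1 rose, and Acadm and Ucp1 fell. Both 6 of 36 and, without Ucp1, 5 of 35 are close to or below that background, so the number of called members does not set them apart. Of the oxidation enzymes 1 rose and 1 fell at 8 months, and of the lipid handling and target genes 3 rose and 1 fell, against 9.87% of all genes higher and 6.95% lower. The arrays of the 2 groups did not overlap for 1 member at 2 months (Acot7; 1.5% of all genes), 0 at 4 months (4.81%) and 5 at 8 months (9.7%), which were Eci2, Plin2, Angptl4 and Acot2, higher, and Ucp1, lower, with the same limit on Ucp1.

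**Figure D2:**
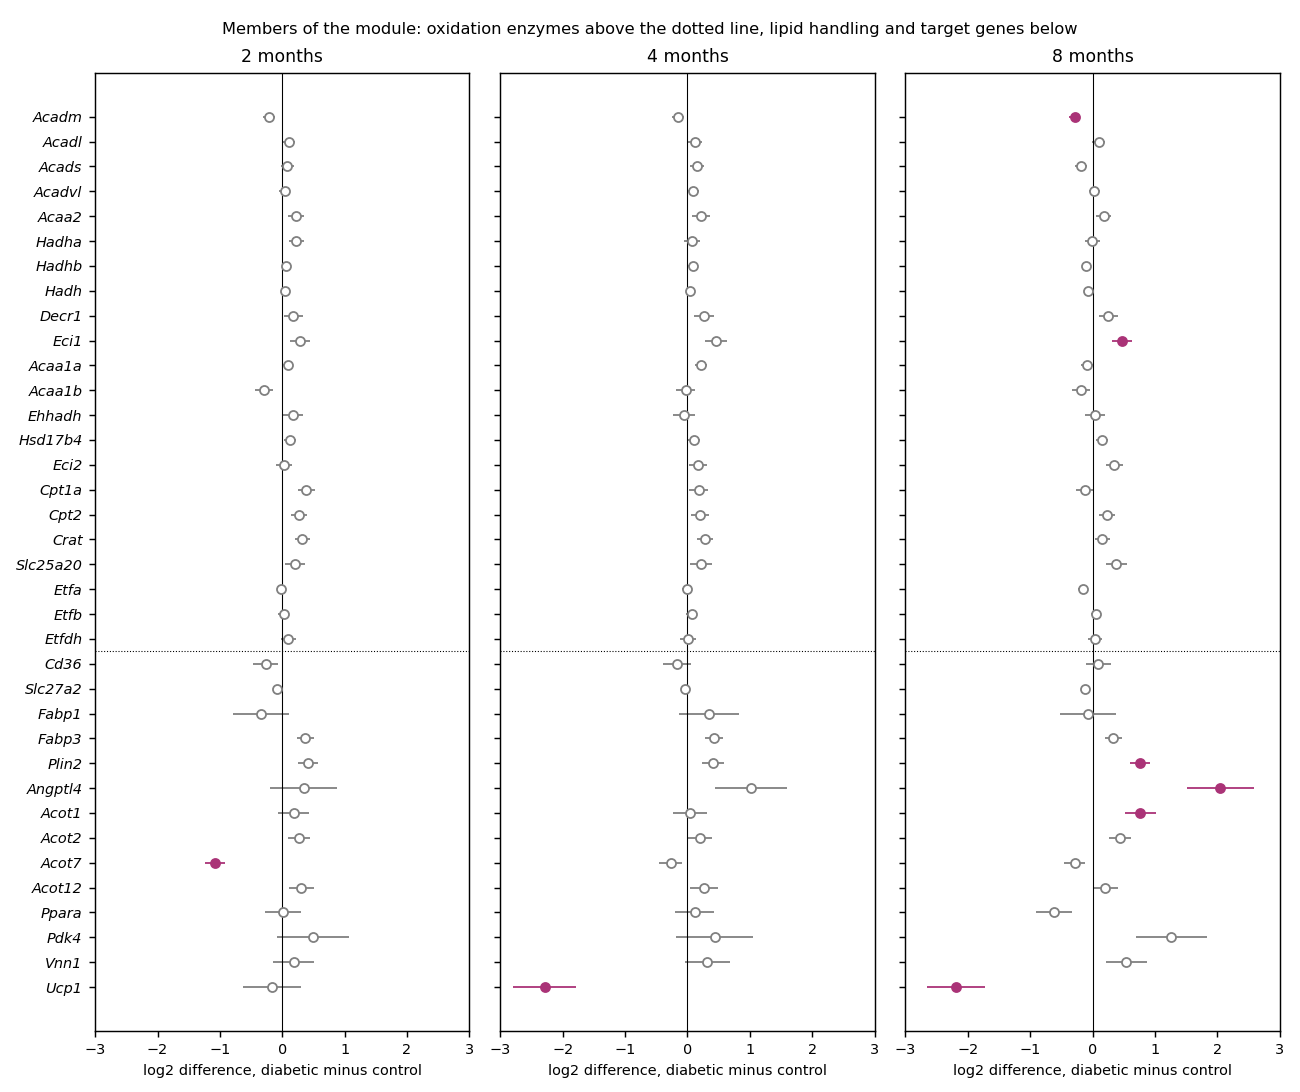
Log2 difference, diabetic minus control, of each of the 36 measured members at 2, 4 and 8 months. Bars give the SE of the limma fit and are narrower than 95% intervals. Oxidation enzymes are above the dotted line and lipid handling and target genes below it. Most enzymes lie near 0 at every age, Acot7 stands at -1.08 at 2 months, and at 8 months Angptl4 stands at 2.05 and Ucp1 at -2.20.

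Among the 10 enzymes of the mitochondrial spiral, Acadm and Eci1 were called, both at 8 months and in opposite directions. Acadm encodes medium-chain acyl-CoA dehydrogenase, which takes the first step on medium chains. At 2 months its log2 signal had a lowest, median and highest value of 13.40, 13.78 and 13.87 in controls and 13.32, 13.51 and 13.71 in diabetic kidneys. At 4 months it read 13.52, 13.44, 13.60 and 13.72 on the 4 control arrays and 13.33, 13.41 and 13.50 as lowest, median and highest of the diabetic arrays. At 8 months the values were 12.92, 13.15 and 13.47 in controls and 12.66, 12.82 and 13.19 in diabetic kidneys. Diabetic arrays were the lower group at each age, with overlap at each age. The differences were -0.21 ± 0.09 (SE; adjusted p = 0.224), -0.16 ± 0.10 (adjusted p = 0.596) and -0.28 ± 0.09 (adjusted p = 0.0243), the last a 1.22-fold fall.

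Eci1, the mitochondrial enoyl-CoA isomerase that prepares unsaturated chains for oxidation, rose 1.39-fold at 8 months. At 2 months its lowest, median and highest signals were 10.86, 11.48 and 11.64 in controls and 11.004, 11.85 and 11.998 in diabetic kidneys. At 4 months the 4 control arrays read 10.96, 10.68, 10.44 and 10.70, and the diabetic arrays 10.74, 11.35 and 11.42. At 8 months controls had 10.71, 10.92 and 11.18 and diabetic kidneys 11.06, 11.39 and 11.96, so the groups overlapped slightly. The difference was 0.28 ± 0.16 at 2 months (adjusted p = 0.423), 0.46 ± 0.18 at 4 months (adjusted p = 0.264) and 0.47 ± 0.16 at 8 months (adjusted p = 0.0417). The calls of Acadm and Eci1 were narrow: leaving out single 8-month arrays kept them in 8 and in 4 of 12 fits. Acadm was lost without diabetic array 1 or 3 or control array 5 or 6, and Eci1 was kept without diabetic array 2 or 3 or control array 5 or 6 and lost without any of the others.

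The other 8 mitochondrial enzymes, which include the trifunctional protein subunits Hadha and Hadhb and the long-chain, short-chain and very-long-chain dehydrogenases Acadl, Acads and Acadvl, did not pass at any age. Their differences at 8 months lay between -0.18 for Acads and 0.25 for Decr1, the reductase for unsaturated chains. Hadha, for example, stood at 0.23 ± 0.12 at 2 months and at -0.01 ± 0.12 at 8 months, a 95% interval of -0.25 to 0.24. Hadh was the steadiest gene of the whole set, with an SD of 0.083 within groups and an 8-month difference of -0.07 ± 0.06. The electron transfer genes Etfa, Etfb and Etfdh, which pass electrons from the dehydrogenases to the respiratory chain, had differences between -0.16 and 0.09 over the 3 ages, with Etfa at -0.16 ± 0.07 at 8 months (adjusted p = 0.122; 0.048 without diabetic array 4).

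The 4 measured genes of the carnitine shuttle had positive differences at 2 and 4 months and none passed. Cpt1a, which forms acylcarnitine at the outer membrane and sets the pace of entry, stood at 0.39 ± 0.14 at 2 months (adjusted p = 0.145), 0.18 ± 0.15 at 4 months and -0.12 ± 0.14 at 8 months. Crat, the carnitine acetyltransferase, stood at 0.32 ± 0.12 at 2 months (adjusted p = 0.167). Both values rest in part on control array 6, the array with the high actin ratio: without it Cpt1a stood at 0.23 (adjusted p = 0.296) and Crat at 0.20 (adjusted p = 0.328). Cpt1a was called without control array 5 (adjusted p = 0.0467), and Crat without diabetic array 6 (adjusted p = 0.0498). Dimmer probe sets of Cpt1a stood at only 0.10 and 0.11 at 2 months (limma, adjusted p = 0.742 and 0.658). Those of Crat stood at 0.17 and 0.15 (adjusted p = 0.343 and 0.458). Same-numbered arrays of that age deviate together, and with the number as a block Crat was called at an adjusted p of 0.0238, which made 2 called members at 2 months, and 553 genes were called in place of 330. The carrier Slc25a20 and the inner enzyme Cpt2 stood at 0.38 ± 0.17 (adjusted p = 0.123) and 0.23 ± 0.13 (adjusted p = 0.240) at 8 months.

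None of the 5 peroxisomal or shared enzymes was called by limma at any age. At an unadjusted p under 0.05 stood Acaa1b at 2 months, Acaa1a at 4 months and Eci2 at 8 months. Of all 13004 genes 1982, 1478 and 3715 stood there at these ages. Eci2, the isomerase found in peroxisomes and mitochondria, was the member of this group with the largest 8-month difference, 0.35 ± 0.13 (adjusted p = 0.0656; 0.043 without diabetic array 6). Its 6 diabetic arrays, at 10.59 to 11.25, all lay above the 6 controls, at 10.30 to 10.55. Hsd17b4 and Ehhadh, the bifunctional enzymes, stood at 0.15 ± 0.09 and 0.04 ± 0.16 at 8 months. Acaa1a and Acaa1b, the peroxisomal thiolases, are near-identical copies that probes may not tell apart, so their values of -0.09 ± 0.09 and -0.19 ± 0.14 are uncertain as values of each gene.

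Of the genes of uptake, binding and storage, Plin2 and Angptl4 rose at 8 months and 4 did not pass. Plin2 encodes perilipin 2, the coat protein of lipid droplets. At 2 months its lowest, median and highest signals were 11.32, 11.43 and 11.63 in controls and 11.30, 11.91 and 12.47 in diabetic kidneys. Diabetic arrays 1 to 4 stood above every control, while diabetic arrays 5 and 6 read 11.38 and 11.30, within the controls. On the 4 controls of 4 months it read 11.32, 10.40, 10.46 and 10.41 against 10.84, 10.93 and 11.51 in diabetic kidneys. Control array 1 was the exception there, above all but 1 of the 7 diabetic arrays. At 8 months controls had 10.79, 10.996 and 11.11 and diabetic kidneys 11.46, 11.73 and 12.05, with no overlap. Plin2 therefore stood higher by 0.41 ± 0.16 at 2 months (adjusted p = 0.182), by 0.41 ± 0.17 at 4 months (adjusted p = 0.354) and by 0.76 ± 0.16 at 8 months (adjusted p = 0.000832), a 1.70-fold rise.

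Angptl4 is a secreted inhibitor of lipoprotein lipase and a classical PPAR target. Its signals at 2 months were 9.18, 10.10 and 11.08 in controls and 8.77, 10.59 and 11.93 in diabetic kidneys. Controls of 4 months spread from 11.05 over 9.45 and 7.68 to 6.38, and the diabetic arrays had 8.92, 9.41 and 10.78. At 8 months controls had 7.08, 8.03 and 8.53 and diabetic kidneys 9.32, 9.93 and 10.64. The groups overlapped at 2 and 4 months and did not overlap at 8 months. Angptl4 rose 4.14-fold at 8 months, a difference of 2.05 ± 0.53 (adjusted p = 0.00618), after 0.34 ± 0.53 at 2 months (adjusted p = 0.833) and 1.02 ± 0.58 at 4 months (adjusted p = 0.539). The difference in effect between 8 and 2 months, 1.71 ± 0.75, did not pass (adjusted p = 0.223). Without control arrays 3 and 4 the 4-month difference was -0.59, so its sign at that age rests on those arrays.

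Fabp3, a fatty acid binding protein of heart and kidney, had differences of similar size at all ages that did not pass, 0.37 ± 0.14 (adjusted p = 0.154), 0.42 ± 0.15 (adjusted p = 0.199) and 0.33 ± 0.14 (adjusted p = 0.0957). Its 8-month difference was called with the clock covariate (adjusted p = 0.00652), with a replicate block, with 8-month arrays alone and after quantile normalization over all arrays. It was not called in the other runs, such as that with the mean of all probe sets. At 4 months its diabetic arrays read 10.87 to 11.28 and its controls 10.31 to 10.88. A dimmer probe set of Fabp3 stood at -0.01, 0.13 and 0.08 at the successive ages (limma, adjusted p = 0.974, 0.695 and 0.572). Fabp1, the liver-type binding protein, ranged from 5.11 to 8.67 among 8-month controls, and its difference of -0.07 ± 0.45 leaves an interval from -0.98 to 0.83. The fatty acid transporter Slc27a2 read 13.85 to 14.02 in diabetic and 14.02 to 14.10 in control kidneys at 8 months, a difference of -0.12 ± 0.06 (adjusted p = 0.167). Cd36, the fatty acid translocase, stood at 0.09 ± 0.20 at 8 months; at 2 months it stood at -0.27 ± 0.20, and a dimmer probe set of the gene at -0.50 (adjusted p = 0.048). Without control array 6 of that age, which read 8.31 against 9.58 to 10.16 on the other controls and had the high actin ratio, Cd36 stood at -0.54 and was called (adjusted p = 0.0262).

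Acyl-CoA thioesterases release free fatty acids from coenzyme A, in the cytosol (Acot1, Acot7), in mitochondria (Acot2) or, for Acot12, mainly from acetyl-CoA. Acot7 was the member with the clearest change at 2 months. Its controls had a lowest, median and highest signal of 10.04, 10.54 and 11.19, and the diabetic kidneys of 9.22, 9.64 and 9.67. All 6 diabetic arrays lay below all 6 controls. At 4 months the 4 controls read 9.68, 9.22, 9.43 and 9.35 and the diabetic arrays 8.74, 9.21 and 9.73. At 8 months controls had 9.70, 9.96 and 10.54 and diabetic kidneys 9.49, 9.62 and 9.97. At both later ages the groups overlapped. The fall was 2.11-fold at 2 months, -1.08 ± 0.17 (adjusted p = 0.000184), while the differences of -0.27 ± 0.18 at 4 months (adjusted p = 0.643) and -0.29 ± 0.17 at 8 months (adjusted p = 0.255) did not pass. Acot7 was the single member of 36 whose effect differed between ages, by 0.79 ± 0.23 from 2 to 8 months (adjusted p = 0.049), against 3.89% of all genes for that contrast. The 4 minus 2 month difference, 0.81 ± 0.24, did not pass (adjusted p = 0.541). From 4 to 8 months the effect differed for 0 of 36 members in limma's test, against 0.877% of all genes, and for 2, Acads and Acaa1a, at an unadjusted p under 0.05.

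Acot1 and its neighbour Acot2 are closely related copies whose probes may cross-hybridise, so values of each gene are uncertain. At 2 months Acot1 had 9.98, 10.38 and 10.66 in controls and 10.06, 10.51 and 11.22 in diabetic kidneys. At 4 months the 4 controls read 10.67, 9.23, 9.58 and 9.75, and the diabetic arrays 9.05, 9.99 and 10.56. At 8 months the values were 9.25, 9.70 and 10.16 in controls and 10.10, 10.40 and 11.31 in diabetic kidneys, overlapping at 10.10 to 10.16. Acot1 rose 1.70-fold at that age, by 0.77 ± 0.25 (adjusted p = 0.0296), after 0.18 ± 0.25 (adjusted p = 0.805) and 0.04 ± 0.27 (adjusted p = 0.984). Leaving out single 8-month arrays kept its call in 7 of 12 fits, and it was lost without diabetic array 1 or 5 or control array 1, 3 or 4. Acot2 stood at 0.44 ± 0.17 (adjusted p = 0.0834) without overlap, 9.57 to 10.36 against 9.27 to 9.53 in controls, and its dimmer probe set at 0.90 (adjusted p = 0.016). Acot12 stood at 0.20 ± 0.20 at 8 months.

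**Figure D3:**
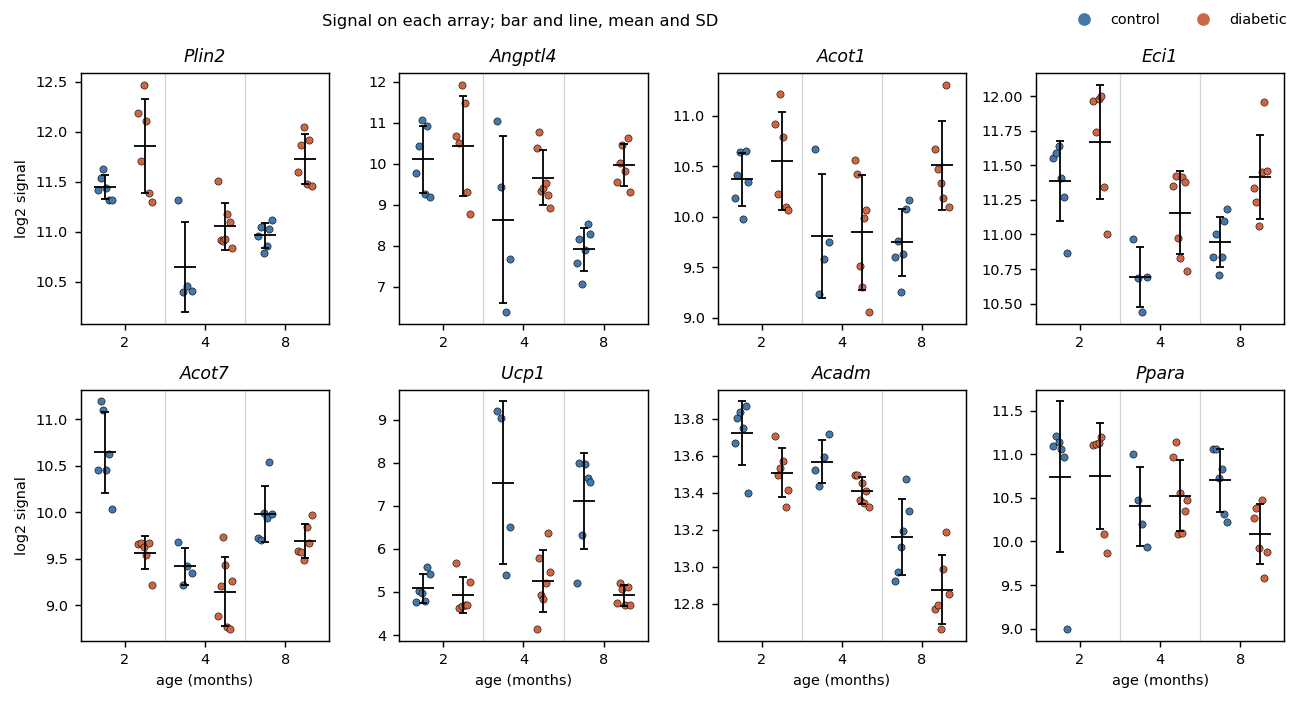
Log2 signal by age of the 7 members called at any age and of Ppara; each point is an array, blue control and orange diabetic, and bar and line give mean and SD. Acot7 separates the groups at 2 months, whereas Plin2 and Angptl4 are higher and Ucp1 is lower in all 6 diabetic arrays of 8 months.

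The promoters of the members that rose at 8 months, and of the members with the closest match, are shown because PPAR-alpha and RXR bind a direct repeat of 2 hexamers with 1 base between them. They are the 250 bases before the start of each gene from RefSeq on GRCm38.p6, given 5' to 3' on the strand of the gene. Both strands were searched for 2 copies of AGGTCA in the same direction with 1 base of any kind between them. Capitals mark a stretch that shares at least 10 of the 12 fixed letters, and all 3 such stretches below lie on the strand opposite to the gene. No promoter of Angptl4 was held in the table.
Plin2: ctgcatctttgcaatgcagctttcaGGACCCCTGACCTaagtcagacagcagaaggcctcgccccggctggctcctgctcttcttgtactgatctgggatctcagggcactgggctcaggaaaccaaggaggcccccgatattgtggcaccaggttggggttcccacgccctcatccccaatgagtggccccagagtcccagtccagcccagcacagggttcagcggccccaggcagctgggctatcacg
Eci1: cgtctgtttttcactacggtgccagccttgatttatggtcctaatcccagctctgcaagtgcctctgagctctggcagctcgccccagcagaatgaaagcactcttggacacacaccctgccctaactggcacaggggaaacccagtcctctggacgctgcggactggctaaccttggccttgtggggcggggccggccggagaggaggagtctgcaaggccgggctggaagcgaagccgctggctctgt
Acot1: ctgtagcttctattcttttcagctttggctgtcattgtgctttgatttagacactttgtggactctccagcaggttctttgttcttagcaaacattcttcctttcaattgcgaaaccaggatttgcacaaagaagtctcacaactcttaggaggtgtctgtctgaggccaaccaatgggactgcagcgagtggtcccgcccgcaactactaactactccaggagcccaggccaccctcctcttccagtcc
Fabp1: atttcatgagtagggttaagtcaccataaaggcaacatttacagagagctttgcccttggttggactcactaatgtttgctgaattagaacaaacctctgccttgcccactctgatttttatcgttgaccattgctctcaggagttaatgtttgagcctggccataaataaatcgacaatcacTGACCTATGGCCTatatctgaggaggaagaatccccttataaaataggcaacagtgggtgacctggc
Acot12: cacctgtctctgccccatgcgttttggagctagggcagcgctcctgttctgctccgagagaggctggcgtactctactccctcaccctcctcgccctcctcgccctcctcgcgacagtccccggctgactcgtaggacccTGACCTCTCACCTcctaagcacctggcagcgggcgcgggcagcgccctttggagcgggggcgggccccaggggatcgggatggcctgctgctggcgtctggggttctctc
The windows are chr4:86670060-86670309 (minus strand) for Plin2, chr17:24426433-24426682 (plus) for Eci1, chr12:84009252-84009501 (plus) for Acot1, chr6:71199629-71199878 (plus) for Fabp1 and chr13:91741271-91741520 (plus) for Acot12. The Plin2 stretch begins 225 bases before the gene start and shares 10 letters, and those of Fabp1 and Acot12 begin 67 and 110 bases before it and share 11. Eci1 and Acot1 share at most 8 letters and are printed in lower case throughout.

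Of the 36 measured members 30 had an entry in the table, and 5 of them held a stretch with 10 or more letters: Acot12, Fabp1, Cd36, Etfa and Plin2. Over all 32851 promoters of this length 3.24% held one. That share is over promoters, while members were counted by gene. With 11 or more letters the count was 2 members against 0.484%, and with all 12 it was 0 members against 0.0335%. Of the 5 with a match Plin2 rose at 8 months and the other 4, at -0.16 to 0.20, did not pass. A match describes the letters in this window and does not show a bound site.

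Ppara itself, the receptor, did not pass at any age from its brightest probe set. At 2 months its lowest, median and highest signals were 8.996, 11.08 and 11.20 in controls and 9.87, 11.11 and 11.20 in diabetic kidneys. The lowest reading was that of control array 6, the array with the high actin ratio. Controls of 4 months read 11.001, 10.48, 10.20 and 9.94 and the diabetic arrays 10.08, 10.47 and 11.14. At 8 months controls had 10.22, 10.78 and 11.06 and diabetic kidneys 9.59, 10.10 and 10.47, lower but overlapping. The differences were 0.01 ± 0.29 (adjusted p = 0.994), 0.12 ± 0.31 (adjusted p = 0.949) and -0.62 ± 0.29 (adjusted p = 0.151). The probe sets disagreed on the call at 8 months. In a separate limma fit, adjusted over probe sets, the other 2 both stood at -0.67, with adjusted p of 0.007 and 0.015. The brightest had an adjusted p of 0.177 in that fit.

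Pdk4, the kinase that shuts pyruvate out of oxidation when fat is burnt, varied more between arrays of a group than any other member, with an SD of 1.06. At 8 months it read 7.47, 8.75 and 9.32 in controls and 9.21, 9.83 and 10.75 in diabetic kidneys, a 2.40-fold difference of 1.26 ± 0.57 that did not pass (adjusted p = 0.134). Vnn1, the pantetheinase, stood at 0.54 ± 0.33 (adjusted p = 0.300), with the highest value, 12.11, on diabetic array 5.

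Ucp1, the uncoupling protein of brown fat, fell at 4 and 8 months. At 2 months it read 4.77, 4.99 and 5.57 in controls and 4.63, 4.69 and 5.67 in diabetic kidneys. Controls of 4 months read 9.21, 9.03, 5.39 and 6.52, and the diabetic arrays had 4.14, 5.22 and 6.37. At 8 months controls had 5.22, 7.60 and 7.99 and diabetic kidneys 4.69, 4.90 and 5.21. Group means of the diabetic kidneys at the 3 ages, 4.93, 5.25 and 4.92, and of 2-month controls, 5.09, lay below the limit for dim genes, 5.27. The gene therefore passed that limit through the controls of 4 and 8 months, and a gene kept in this way has to differ between the groups. Of these controls some were high and others not, and at 8 months control array 1, at 5.22, was just above the highest diabetic array, at 5.21. The differences were -0.16 ± 0.46 (adjusted p = 0.922), -2.28 ± 0.50 (adjusted p = 0.0145) and -2.20 ± 0.46 (adjusted p = 0.000867). With no filter on dim genes the adjusted p of the later ages were 0.0163 and 0.00091. No fold is given, since the diabetic signals lay near or below the limit for dim genes. At 4 months the call was lost without control array 1 (adjusted p = 0.106) or control array 2 (adjusted p = 0.111), the 2 with the high readings.

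Markers of fat moved with Ucp1 in part. Of 13 adipose markers listed 10 were measured, 3 of these (Cidec, Lep and Elovl3) lay below the limit for dim genes, and 7 were tested. At 8 months 3 fell, Cidea, Cox7a1 and Ppargc1b, and none rose; Cidea and Ppargc1b stand in other lists below as well. Cidea, a lipid droplet protein of brown fat, read 4.72, 8.37, 7.21, 8.57, 7.69 and 7.90 on control arrays 1 to 6 at 8 months, against 5.22, 7.99, 6.33, 7.97, 7.65 and 7.54 for Ucp1. Both genes were therefore low on control array 1 and high on the other 5. In the diabetic kidneys Cidea lay between 4.66 and 6.33, and its difference was -2.22 ± 0.52 (adjusted p = 0.00234). Adipoq, a marker of all adipocytes, did not follow, at 0.85 ± 0.83 (adjusted p = 0.551), with 8.17 to 9.47 in diabetic kidneys. The summed adipose signal was 11.63 to 12.69 in 8-month controls and 11.97 to 12.39 in diabetic kidneys. A planned run took the mean of the 7 tested adipose markers, Cidea among them, as a covariate. Ucp1 was called lower in it at 4 and 8 months. Of the members called at 8 months in the main fit, only Acadm was not called in it. With Cidea on each array as a covariate, a setting chosen after the data were seen, the Ucp1 difference was -1.56 at 4 months (adjusted p = 0.0490) and -0.83 at 8 months (adjusted p = 0.231). Cidea itself differed between the groups at 8 months, so that fit cannot tell the part of the covariate from that of the group. Of the 6 members called at 8 months Plin2 and Angptl4 were called in that fit.

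**Figure D4:**
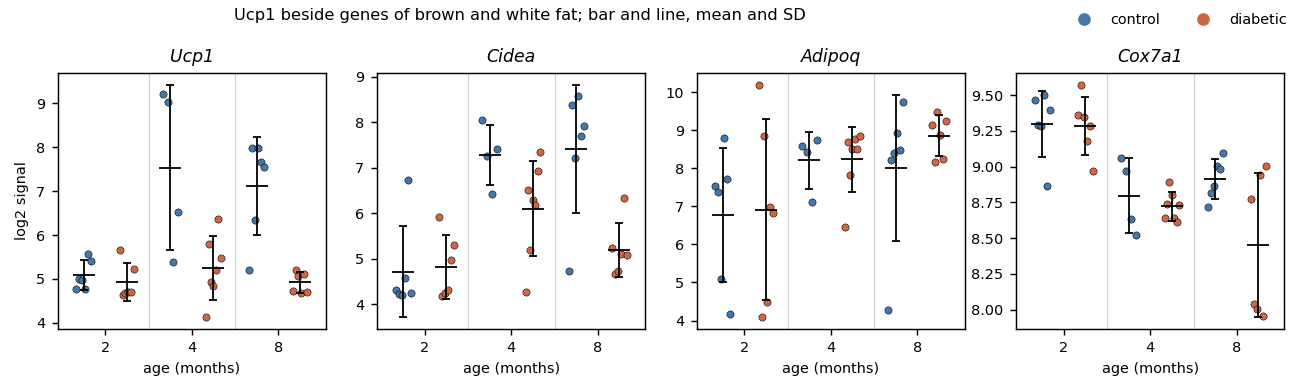
Log2 signal by age of Ucp1 beside 3 adipose markers, Cidea, Adipoq and Cox7a1; each point is an array, blue control and orange diabetic, and bar and line give mean and SD. Ucp1 and Cidea are high on 5 of the 6 controls at 8 months and low on control array 1, whereas Adipoq lies between 8.17 and 9.47 on every diabetic array of that age.

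Angptl4 and Pdk4, the members with the widest spread within groups, were high together on diabetic arrays 3 and 4 of 2 months (11.93 and 11.48 for Angptl4, 12.58 and 12.08 for Pdk4) and low together on diabetic arrays 5 and 6 (9.31 and 8.77, 8.94 and 8.85). On control array 1 of 4 months they read 11.05 and 11.31, each the highest control of that age. The clock gene Dbp differed between the same arrays: it read 8.26 and 7.95 on diabetic arrays 5 and 6 of 2 months against 10.79 to 11.11 on diabetic arrays 2 to 4. At 4 months Dbp read 8.75 and 8.02 on control arrays 3 and 4 against 10.24 to 11.29 on all 7 diabetic arrays. At 8 months it was lowest on diabetic arrays 1, 2 and 5, at 8.25, 8.14 and 7.32. On these arrays Angptl4 read 9.56, 10.01 and 10.64 and Pdk4 9.34, 9.88 and 10.75. Array 5 was thus the highest diabetic array of that age for both members, so low Dbp did not go with low values there. None of the 6 clock genes was called by limma at any age. At an unadjusted p under 0.05 stood 0, 4 and 1 of them, beside 1982, 1478 and 3715 of all 13004 genes. The time of day of sampling is not given in the sources used here, and its part in the members' values was not tested. With a covariate built from Arntl minus Dbp, Plin2, Angptl4 and Eci1 were still called at 8 months, Acot1 was not (adjusted p = 0.0562), and Cpt1a and Fabp3 joined Acot7 at 2 months.

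**Figure D5:**
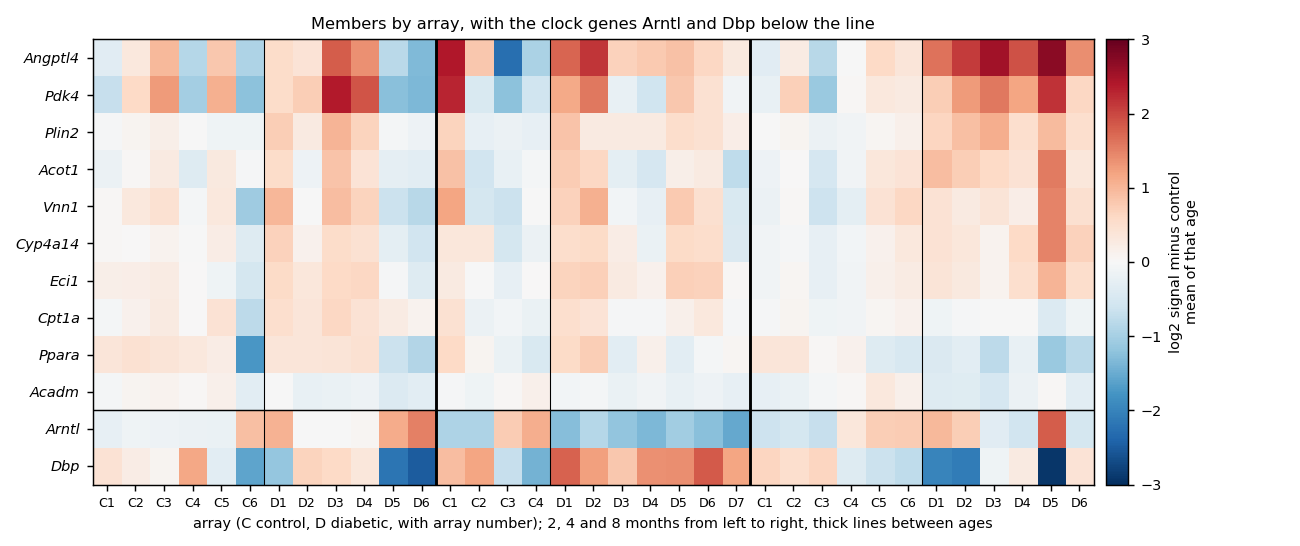
Log2 signal minus the control mean of that age for 9 members and the target Cyp4a14, with the clock genes Arntl and Dbp below the line; columns are arrays (C control, D diabetic), with thick lines between 2, 4 and 8 months, red higher and blue lower. Angptl4 and Pdk4 share their high and low arrays at 2 and 4 months, and at 8 months Angptl4 is higher on all 6 diabetic arrays.

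Other genes of the route were read in the same fit, beside shares over all genes of 2.54%, 0.969% and 16.8% called at the 3 ages and, at 8 months, 9.87% higher and 6.95% lower. Of 34 further oxidation genes tested, 1 fell at 2 months, 1 rose and 1 fell at 4 months, and 5 rose and 8 fell at 8 months, with medians of 0.03, -0.00 and -0.09. Ivd, the isovaleryl-CoA dehydrogenase of leucine breakdown, fell at all ages, by 0.31 ± 0.08 (adjusted p = 0.0216), 0.39 ± 0.08 (adjusted p = 0.0126) and 0.74 ± 0.08 (adjusted p = 3.2e-08). At 8 months its controls read 11.51 to 11.62 and its diabetic arrays 10.50 to 11.08. Also at 8 months the acyl-CoA synthetase Acsl5 rose by 0.47 ± 0.09 (adjusted p = 0.000201), and the synthetase Acsl3 fell by 0.51 ± 0.10 (adjusted p = 0.000651). The dehydrogenases Acad10 and Acadsb, the latter of isoleucine breakdown, fell by 0.34 ± 0.07 and 0.27 ± 0.06.

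Of 35 further targets and lipid handling genes tested, 2 fell at 2 months, 1 rose and 1 fell at 4 months, and 6 rose and 3 fell at 8 months, with medians of 0.10, 0.11 and 0.08, beside the 16.8% of all genes called at 8 months. Lpl, the lipoprotein lipase that Angptl4 inhibits, fell at all ages. Its controls read 12.80 to 13.21 and its diabetic arrays 11.89 to 12.33 at 2 months, and 12.23 to 13.16 against 11.27 to 12.35 at 8 months. The falls were 0.96 ± 0.15 (adjusted p = 0.000215), 0.86 ± 0.16 (adjusted p = 0.00436) and 1.01 ± 0.15 (adjusted p = 7.88e-06). Cyp4a12a, a fatty acid omega-hydroxylase, rose 3.61-fold at 4 months (1.85 ± 0.36, adjusted p = 0.00544) and 3.51-fold at 8 months (1.81 ± 0.33, adjusted p = 0.000151); probes may not tell it from close copies of the Cyp4a12 group. Ces1d, a carboxylesterase, fell by 0.92 ± 0.16 at 8 months, Acot9, a mitochondrial thioesterase, rose by 0.43 ± 0.09, and Cidea fell as given above, with the limit given there.

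Of 7 ketone body genes tested, 2 fell at 2 months and 1 rose and 4 fell at 8 months, where 6.95% of all genes were lower. Differences were below 0 in 4, 6 and 6 of the 7 at the successive ages, with medians of -0.05, -0.20 and -0.39. Acat1, the mitochondrial acetoacetyl-CoA thiolase, fell by 0.50 ± 0.06 at 8 months (adjusted p = 3.53e-07), from 12.17 to 12.30 in controls to 11.54 to 12.003 in diabetic kidneys. Bdh1, which interconverts the ketone bodies, fell by 0.48 ± 0.11 at 2 months (adjusted p = 0.00912) and by 0.67 ± 0.11 at 8 months (adjusted p = 2.24e-05). Acss1 and Oxct1, which activate acetate and acetoacetate, fell by 0.55 ± 0.09 and 0.39 ± 0.09 at 8 months. The monocarboxylate transporter Slc16a1 rose by 0.97 ± 0.31 (adjusted p = 0.0286).

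Of 20 receptors and co-regulators tested, 1 rose at 4 months and 3 fell at 8 months; the latter is near the 16.8% of all genes called at that age. Nr4a1, an immediate early nuclear receptor, rose by 1.41 ± 0.32 at 4 months (adjusted p = 0.0185). At 8 months Hnf4a, a transcription factor of the proximal tubule, fell by 0.20 ± 0.06 (adjusted p = 0.0222), and the PPAR coactivators Ppargc1a and Ppargc1b fell by 0.33 ± 0.11 (adjusted p = 0.0457) and 0.34 ± 0.12 (adjusted p = 0.0403). Medians of this list were 0.02, -0.01 and -0.07. In these 8-month kidneys the proximal tubule markers were lower too, as given above.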

How the data were processed

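The authors deposited log2 signals for 45101 probe sets on 35 Affymetrix arrays. Total RNA was extracted with TRIzol and labelled as biotinylated cRNA, per the labels' protocols. The sources used here do not name the methods of background correction, summarization and normalization. The mean signal differs between ages (6.43, 6.03 and 6.54) more than within an age, so diabetic and control arrays were compared within an age. Arrays have no read depth, and their number limits the precision.

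Probe sets with 1 gene (34945; 932 named several, 9160 none, 64 were controls) were kept, and the probe set with the highest mean stood for its gene. A gene was tested if its mean reached 5.27, below which 40% of probe sets lie, and 13004 did. A mean per group was fitted over all arrays with limma 3.58.1 (R 4.3.3; version 1.17.8 of data.table), 29 residual degrees of freedom, and tested on simulated data. A gene is called at a two-sided p, adjusted by Benjamini-Hochberg over all genes tested, under 0.05. The p-values of dimmer probe sets come from a separate limma fit, adjusted over all probe sets with 1 gene above the limit. In that fit Eci1 had an adjusted p of 0.0514 at 8 months, and the other members called at that age passed. Errors of differences are SE and of means SD.

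Same-numbered arrays correlated after removing group means at 2 months (r from 0.246 to 0.444 in 6 of 6 pairs). At that age 7 of 12 arrays correlated best with their own number. The numbers may thus mark pairs at that age on the data alone, and the labels do not say that they do. The main fit holds no block for them, so its 2-month p-values ignore any such pairing. A block was fitted as an alternative run.

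Of the 36 measured members 16 have 1 probe set. Another 16 have 23 further probe sets above the limit, which had the same sign in 56 of 69 comparisons. The gene was called in 0 of these comparisons, so they check none of the calls. Of the members called at any age only Angptl4 has a second probe set. That probe set lay below the limit, at a mean of 3.14, and its 8-month difference was 0.17. Members called at any age and Ppara are given by array, other members by means and ranges; of each further pathway list at most 5 called genes with the smallest p are named. The members, their classes and all lists were chosen with earlier results of these data known. Alternatives were other normalizations, no filter, all probe sets of a gene, blocks, covariates (clock, adipose and Cidea signals), single ages and left-out arrays.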

Additional observations from a re-analysis of the deposited data

Results flagged for a closer look

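Of 48 groups examined (8 genes in 6 groups), 4 had an array whose gap to the nearest other was large for the range of the group, which chance gives in about 1 in 20 groups. Ppara on control array 6 of 2 months read 8.996, with the next lowest control at 10.97; this array also had the high beta-actin 3' minus 5' ratio of 2.56. Plin2 on control array 1 of 4 months read 11.32, with the next highest at 10.46, and this array was also the highest control for Angptl4 (11.05) and Pdk4 (11.31). Acot7 on diabetic array 6 of 2 months read 9.22, with the next lowest at 9.54. Acot7 on control array 5 of 8 months read 10.54, with the next highest at 9.99.

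The effect of diabetes on Acot7 differed between 8 and 2 months by 0.79 ± 0.23 in limma's contrast of the differences (adjusted p = 0.049). All 6 diabetic arrays of 2 months lay below all controls of that age, and the groups overlapped at 8 months.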

How the results depend on the processing

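The fall of Acot7 at 2 months and the changes of Plin2 and Angptl4 at 8 months kept direction and call in every alternative run. With a replicate block the genes called at 2 months were 553 and the members called were 2 at 2 months and 10 at 8 months. The block changed no other count of genes by over 1.5 times. At 4 and 8 months 1 of 4 and 2 of 6 correlations of same-numbered arrays were above 0.1. There 3 of 8 and 4 of 12 arrays correlated best with their own number. These few values do not settle whether the numbers mark pairs at those ages, and the labels do not say. With arrays of each age alone the genes called were 64 at 2 months and 358 at 4 months, and the members called were 0 at 4 months and 10 at 8 months, where Eci2, Fabp3, Acot2, Pdk4 (adjusted p = 0.0120) and Ppara (adjusted p = 0.0300) joined and Acadm did not pass (adjusted p = 0.0766). The clock covariate gave 3 members at 2 months, and leaving out diabetic and control arrays 5 and 6 of that age gave 2, with Plin2 at 0.61 (adjusted p = 0.0499). Without control arrays 3 and 4 of 4 months 5 genes were called. With the Cidea covariate, chosen after seeing the data and itself different between the groups at 8 months, 2 members were called at that age. The causes were not tested.

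Signs turned for results that were not called. Ppara stood at -0.063 at 2 months over the mean of its probe sets and at -0.38 at 4 months with the clock covariate, and Ucp1 at 0.031 at 2 months without arrays 5 and 6. Without control arrays 3 and 4 of 4 months Angptl4 stood at -0.59, Acot1 at -0.11 and Ppara at -0.22.

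Leaving out single arrays gave 192 (without control 2) to 515 (without diabetic 2) called genes at 2 months, 29 (without control 4) to 135 at 4 months and 1633 to 2329 at 8 months, and 1 to 2, 0 to 1 and 3 (without diabetic 1) to 6 called members. At 2 months 512 genes were called without control 5 and 219 without control 1, and at 4 months 36 without control 3 and 78 without diabetic 5. Ppara at 2 months then ranged from -0.34 to 0.18, and at 4 months from -0.036 to 0.32; Acot1 at 4 months ranged from -0.15 to 0.33. Class medians ranged from 0.05 to 0.16, 0.08 to 0.17 and -0.02 to 0.08 for oxidation enzymes, and from 0.04 to 0.33, 0.06 to 0.41 and 0.21 to 0.37 for lipid handling genes. All 64 class medians under the other alternatives moved by less than 1 SD between arrays.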
